A study of Homo sapiens with 12 samples.

Results

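The subject is 9 enzyme genes of the citric acid cycle in SBC3 spheroids: CS, IDH2, IDH3A, OGDH, DLST, SUCLG1, SUCLA2, FH and MDH2. They were chosen by gene symbol from the 60649 genes of the count tables, with earlier results of these data known. All 9 passed the expression filter. SBC3 is an established human small cell lung cancer line, and all 12 libraries came from this 1 line. The labels put 3 libraries in each of 4 groups: control, teriflunomide alone, lurbinectedin alone, and both drugs in combination. Teriflunomide is the active metabolite of leflunomide and inhibits DHODH, a pyrimidine synthesis enzyme of the inner mitochondrial membrane. Lurbinectedin is a DNA-binding drug that inhibits transcription. The series concerns the joint effect of teriflunomide and chemotherapy on mitochondrial fragmentation through DRP1. The labels used here state neither doses nor times of exposure, and nothing there says whether the libraries of a group came from separate cultures, so p-values measure the spread between these libraries, which may be technical.

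The citric acid cycle runs in the mitochondrial matrix. Citrate synthase joins acetyl-CoA to oxaloacetate, a series of dehydrogenases then releases carbon dioxide and passes electrons to NADH, NADPH and ubiquinone, and malate dehydrogenase restores oxaloacetate. All the enzymes are encoded in the nucleus, and several are complexes whose subunits come from separate genes, so the RNA of 1 subunit does not give the amount of the enzyme. Proliferating cancer cells also draw on the cycle for citrate, aspartate and other precursors, aspartate being a substrate of pyrimidine synthesis.

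Total counts were between 23206414 and 33222162 per library, and the 9 genes had between 603 and 13278 counts in any 1 library. The share of counts on the mitochondrial genome was 6.26% to 7.17% in the control libraries and 13.8% to 17.0% with lurbinectedin. It was 8.42% and 8.43% in teriflunomide replicates 1 and 2 but 22.6% in replicate 3, and 14.6% and 13.1% in combination replicates 1 and 3 but 24.9% in replicate 2. Those 2 libraries stood apart from their groups, and values that move without them are given beside the results below, some from a fit of the other 10 libraries that was added after the data were seen. CPM are counts scaled to a common library size by TMM, a method that aligns the bulk of genes between libraries. Of 6 neuroendocrine markers of classical small cell lung cancer, SYP (14.1 to 36.2 CPM) and NEUROD1 (at most 6.51 CPM) were detected in all 12 libraries, CHGA reached at most 0.654 CPM, NCAM1 at most 0.0681, and INSM1 had no count in any library. Their summed level was 20.3 to 21.7 CPM in the control libraries and 19.7 to 20.7 CPM under teriflunomide, but 31.9 to 34.3 CPM in lurbinectedin libraries and 35.7 to 39.0 CPM where both drugs were given. YAP1, a marker of another subtype, lay between 60.2 and 343 CPM. The summed level of 4 epithelial markers was 236 to 252 CPM in the control libraries and 400.1 to 433 CPM with lurbinectedin; nearly all of it was KRT8, since EPCAM, CDH1 and KRT18 each stayed at or below 0.322 CPM. The summed level of 4 fibroblast markers was 519 to 549 CPM in the control libraries and 186 to 220.2 CPM with lurbinectedin; it consisted of COL1A1 and COL1A2, while DCN had a count in 1 library and LUM in none. Leukocyte markers reached at most 0.447 CPM in sum. In bulk RNA, fewer cells of a type and less RNA per cell cannot be told apart.

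The deposited coordinates are those of GRCh38. CS (ENSG00000062485.19) lies on chromosome 12 from 56271699 to 56300391, minus strand, and IDH2 (ENSG00000182054.10) on chromosome 15 from 90083045 to 90102477, minus strand. IDH3A (ENSG00000166411.14) is on chromosome 15 from 78131498 to 78171945, plus strand. The subunits of the oxoglutarate dehydrogenase complex are OGDH (ENSG00000105953.15), on chromosome 7 from 44606572 to 44709066, and DLST (ENSG00000119689.15), on chromosome 14 from 74881891 to 74903743, both on the plus strand. SUCLG1 (ENSG00000163541.12) lies on chromosome 2 from 84423528 to 84460045 and SUCLA2 (ENSG00000136143.16) on chromosome 13 from 47745736 to 48037968, both on the minus strand. FH (ENSG00000091483.8) is on chromosome 1 from 241497511 to 241519799, minus strand, and MDH2 (ENSG00000146701.12) on chromosome 7 from 76048051 to 76067508, plus strand. Strand use in counting is not given in the sources used here, so reads of overlapping genes may be mixed. IDH3A shares 2608 exon bases with ACSBG1, which had at most 10 counts, and 38 with CIB2, which had at most 91. The exons of CS overlap those of CNPY2-AS1, with at most 64 counts, and of ENSG00000144785, with at most 3. LINC00562 and SUCLA2-AS1, within the SUCLA2 span, share no exon base with it. Processed pseudogenes of CS, DLST, FH and SUCLA2 had at most 5 counts, in DLSTP1.

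Promoter windows, from 250 bases before to 50 bases after the start, were found for 8 of the 9 genes in the RefSeq table of GRCh38.p14. The sites below are shown because they are the matches found in these windows to 2 elements known from nuclear genes for mitochondrial proteins: the ETS core (CCGGAAG, or CTTCCGG on the other strand) in MDH2 and DLST, and the NRF1 element (GCGCA, any base, then GCGC, or the reverse complement) in SUCLA2 and IDH3A. ETS factors and NRF1 are classical activators of nuclear genes for mitochondrial proteins. Capitals mark the match, each sequence reads 5′ to 3′ on the strand of its gene, and the distance is that of the first motif base before the RefSeq start.
MDH2, 113 bases before the start, chr7:76047982-76048010, plus strand: ctttccgactcCCGGAAGtggccgtgatc
MDH2, 69 bases before the start, chr7:76048026-76048054, plus strand: ggcgagcgcgaCCGGAAGtccggtcactc
DLST, 22 bases before the start, chr14:74881883-74881911, plus strand: ggcccgccccaCTTCCGGttgttgtccgg
SUCLA2, 38 bases before the start, chr13:48001292-48001321, minus strand: tgtcgcctgtGCGCCTGCGCgcggcgccga
IDH3A, 10 bases before the start, chr15:78149342-78149371, plus strand: cgtggggtggGCGCTTGCGCactgccgctg
The ETS letters occur in 10.3% and the NRF1 letters in 5.78% of all 35116 promoter windows in the table, each on either strand. Of the 3 members called higher with lurbinectedin, MDH2 and DLST held the ETS letters and IDH3A did not, and the NRF1 letters stood in the windows of 2 genes that moved in opposite directions. GGGCGG or its reverse complement, the SP/KLF box, was in 5 of the 8 windows against 44.95% of all windows, and CCAAT or its reverse complement in 4 against 34.6%. No window of the 8 held TATAAA or TGACGTCA on either strand. A match describes the letters in this window and is not a measured binding site. The IDH2 window is that of a start inside the gene, and the SUCLA2 and IDH3A windows lie inside the longer gene spans of the deposited tables.

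Levels of different genes were compared per length, as CPM per kilobase of annotated exon. In control spheroids the order was CS at 61.6 ± 1.19 (SD, n = 3), MDH2 at 55.0 ± 0.521, IDH2 at 42.1 ± 0.973, DLST at 23.7 ± 0.848, FH at 19.4 ± 0.438, OGDH at 19.1 ± 0.569, SUCLG1 at 10.8 ± 0.741, IDH3A at 8.48 ± 0.134 and SUCLA2 at 7.14 ± 0.335. Only FH and OGDH, neighbours in this order, had overlapping libraries. With lurbinectedin MDH2 led the order at 78.5 ± 6.63, followed by IDH2, CS and DLST between 51.8 and 49.8, whose neighbours overlapped. OGDH, at 7.26 ± 0.394, then lay below IDH3A and SUCLG1, both of which it had exceeded in the control group. Annotated exon length includes every exon of every transcript, 9350 bases for FH and 8879 for SUCLA2, so the levels of genes with long, little-used exons are understated.

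**Figure D1:**
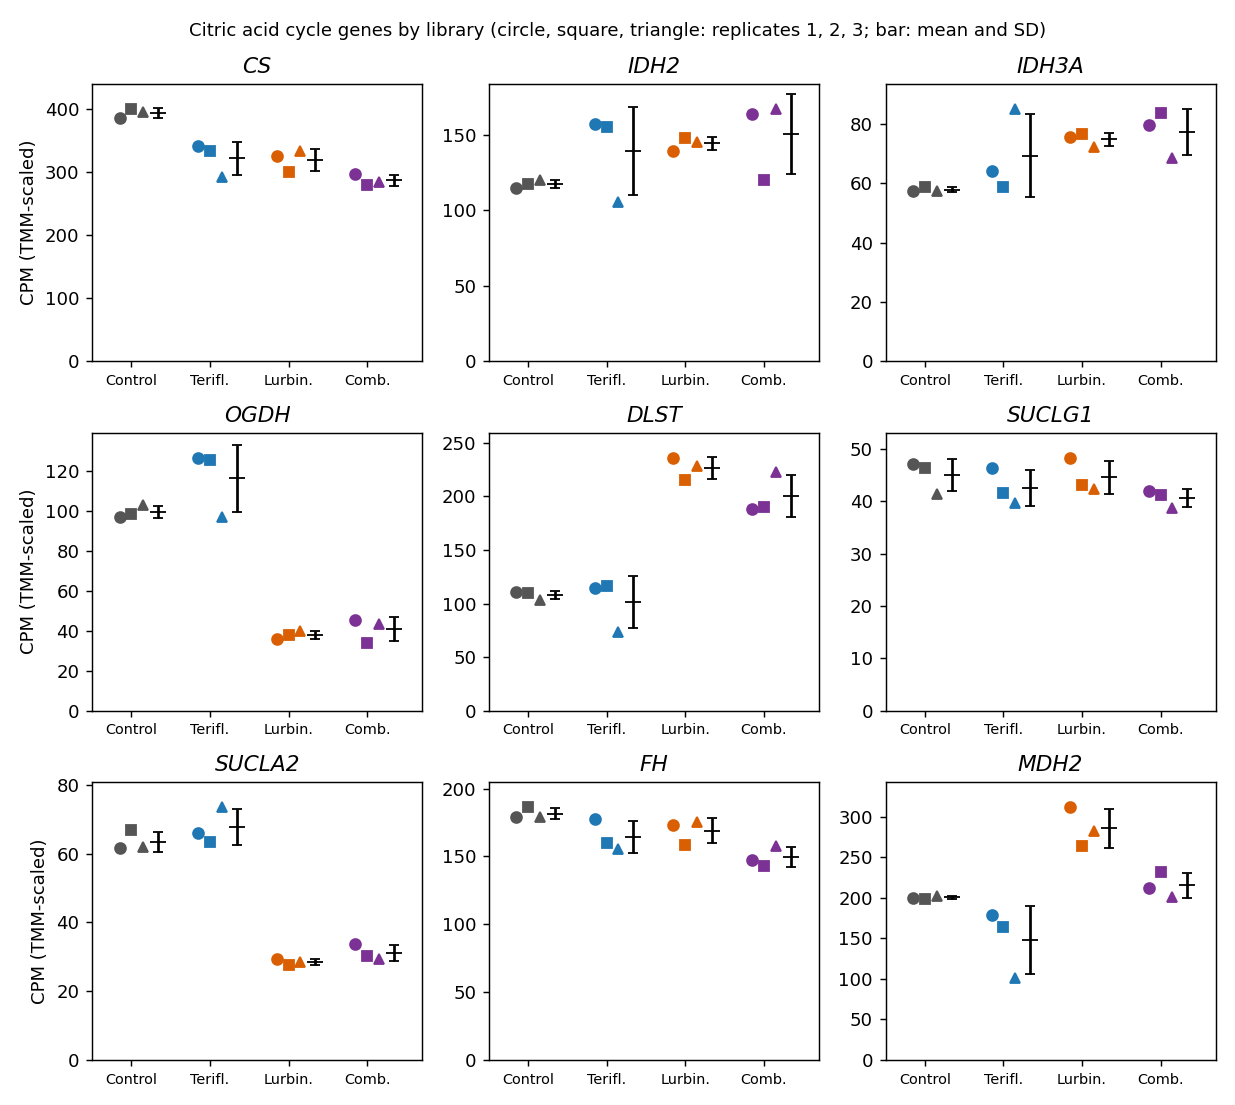
CPM of the 9 genes in each of the 12 libraries, by treatment group, with the group mean and SD beside the points and axes that start at 0. OGDH and SUCLA2 are low, and DLST high, in all 6 libraries exposed to lurbinectedin, and in the teriflunomide group replicate 3 (triangle) lies away from the other 2 for IDH2, IDH3A, OGDH, DLST and MDH2.

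Lurbinectedin moved the cycle genes in both directions. OGDH and SUCLA2 fell to 0.380 and 0.449 of their control levels, DLST rose 2.10-fold, and MDH2, IDH3A and CS changed less. In edgeR's quasi-likelihood test with Benjamini-Hochberg adjustment over all 16683 genes tested, 6 of the 9 were called at an adjusted p under 0.05, 3 higher and 3 lower. Of all genes tested, 71.6% were called in this comparison, 36% higher and 35.7% lower, so the count for the cycle is near the background. The median log2 fold change of the 9 was -0.01, beside 0.05 for all genes tested, and their median absolute log2 fold change was 0.37, beside 0.88. Thus the levels of most of these genes moved by less than those of the typical gene, with OGDH, SUCLA2 and DLST above it. The mitochondrial share, YAP1 and the neuroendocrine, epithelial and fibroblast markers given above moved with lurbinectedin as well. With the genes of the mitochondrial genome left out before scaling, 6 members were again called, 3 in each direction. Their removal hardly altered the values (OGDH -1.40 in both fits, DLST 1.07 and 1.06), so that fit checks the scaling only. The part of the mitochondrial share and of the markers in these changes was not tested.

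The cycle opens with CS, which encodes citrate synthase. CS gave 386, 401 and 397 CPM in control replicates 1 to 3, against 325, 301 and 333 CPM with lurbinectedin and 298, 281 and 285 CPM with the combination. The groups did not overlap, and every drug-treated library was below every control library. CS fell by 0.30 on the log2 scale with lurbinectedin (SE 0.0871, adjusted p = 0.00639) and by 0.46 with the combination (SE 0.0872, adjusted p = 0.000359).

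Isocitrate is oxidised in the matrix by an NADP-dependent enzyme, encoded by IDH2, and by an NAD-dependent complex whose catalytic subunit is encoded by IDH3A. IDH2 gave 115, 118 and 120.0 CPM in the control libraries, 139.6, 148 and 146 CPM with lurbinectedin, and 164, 120.3 and 167 CPM with the combination. The combination library with the low value was replicate 2, 1 of the 2 libraries with the highest mitochondrial share, though even it was just above the controls. The log2 fold change of IDH2 was 0.30 with lurbinectedin (SE 0.151, adjusted p = 0.0886), which did not pass the test although the groups did not overlap, and 0.36 with the combination (SE 0.151, adjusted p = 0.0470), which did. IDH3A gave 57.3, 58.9 and 57.4 CPM in the control libraries, 75.6, 76.6 and 72.3 CPM with lurbinectedin and 79.6, 83.7 and 68.6 CPM with the combination. All 6 libraries exposed to lurbinectedin exceeded all 3 controls. IDH3A rose by 0.37 on the log2 scale with lurbinectedin (SE 0.130, adjusted p = 0.0199) and by 0.42 with the combination (SE 0.130, adjusted p = 0.0109). The ratio of IDH3A to IDH2, per exon length and within each library, was 0.201 ± 0.00527 in the control group and 0.212 ± 0.00918 with lurbinectedin (SD, n = 3 each; exact two-sided permutation p = 0.3).

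The oxoglutarate dehydrogenase complex contains OGDH, the E1 subunit that decarboxylates 2-oxoglutarate, and DLST, the E2 subunit that transfers the succinyl group to CoA. OGDH gave 97.2, 98.9 and 103 CPM in the control libraries, 35.8, 37.8 and 39.9 CPM with lurbinectedin, and 45.5, 34.0 and 43.3 CPM with the combination. DLST gave 110.3, 110.1 and 104 CPM in the control libraries, 236, 215 and 228 CPM with lurbinectedin, and 188, 190.5 and 223 CPM with the combination. For both genes the libraries with and without lurbinectedin were separated by a wide gap, in opposite directions. OGDH fell by 1.40 on the log2 scale with lurbinectedin (SE 0.132, adjusted p = 4.04e-07) and by 1.28 with the combination (SE 0.131, adjusted p = 1.11e-06). DLST rose by 1.07 with lurbinectedin (SE 0.148, adjusted p = 1.75e-05) and by 0.89 with the combination (SE 0.147, adjusted p = 0.000100).

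Succinate-CoA ligase pairs a common alpha subunit, encoded by SUCLG1, with a beta subunit that sets the nucleotide, SUCLA2 for ADP and SUCLG2 for GDP. SUCLG1 gave 47.1, 46.5 and 41.5 CPM in the control libraries, 48.3, 43.2 and 42.3 CPM with lurbinectedin, and 42.0, 41.2 and 38.6 CPM with the combination. The groups overlapped. Its log2 fold change with lurbinectedin was -0.01 (95% interval -0.24 to 0.22, adjusted p = 0.916), a value that turned to 0.03 when the expression filter was set at 1 CPM, and with the combination it was -0.15 (95% interval -0.38 to 0.08, adjusted p = 0.231). SUCLA2 gave 61.5, 66.9 and 62.0 CPM in the control libraries, 29.2, 27.6 and 28.6 CPM with lurbinectedin, and 33.6, 30.3 and 29.3 CPM with the combination. Every library exposed to lurbinectedin was well under every control library. SUCLA2 fell by 1.16 on the log2 scale with lurbinectedin (SE 0.103, adjusted p = 2.09e-07) and by 1.03 with the combination (SE 0.103, adjusted p = 7.87e-07).

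The last steps are the hydration of fumarate by FH and the oxidation of malate by MDH2. FH gave 179, 186 and 179 CPM in the control libraries, 173, 158 and 175 CPM with lurbinectedin, and 148, 143 and 157 CPM with the combination. Its log2 fold change was -0.10 with lurbinectedin (95% interval -0.29 to 0.09, adjusted p = 0.313), although the groups did not overlap, and FH fell by 0.28 with the combination (SE 0.0888, adjusted p = 0.0123). MDH2 gave 200.04, 199 and 202 CPM in the control libraries, 311, 263 and 283 CPM with lurbinectedin, and 212, 232 and 201 CPM with the combination. The lurbinectedin libraries lay above all others, while combination replicate 3 was within the control range. MDH2 rose by 0.51 on the log2 scale with lurbinectedin (SE 0.162, adjusted p = 0.0116). With the combination its log2 fold change was 0.10 (95% interval -0.25 to 0.45, adjusted p = 0.589), it was 0.04 without combination replicate 2 (adjusted p = 0.868), and it turned to -0.07 when libraries were scaled by size alone.

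**Figure D2:**
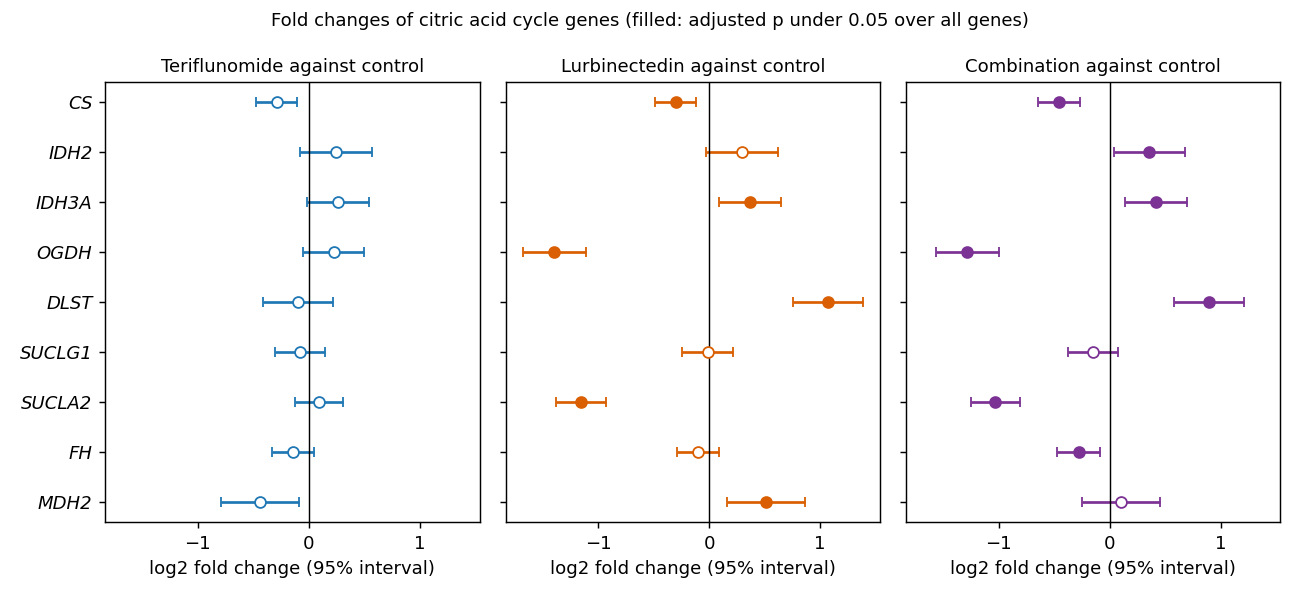
Log2 fold changes of the 9 genes against control with their 95% intervals, for teriflunomide, lurbinectedin and the combination; filled points have an adjusted p under 0.05 in edgeR over all genes tested. No point is filled for teriflunomide, 6 are filled for lurbinectedin and 7 for the combination, with OGDH and SUCLA2 on the left and DLST on the right in both of the latter. The combination value of MDH2, 0.10, turned to -0.07 when libraries were scaled by size alone, and the lurbinectedin value of SUCLG1, -0.01, to 0.03 with a filter at 1 CPM.

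Groups did not overlap for 4 members that were higher (42.4% of all genes tested) and 4 that were lower (40.8%) with lurbinectedin. When only library size was used for scaling, the median over all genes moved from 0.05 to -0.18 on the log2 scale, and 39.2% of calls were higher in place of 50.2%. IDH3A (0.14, adjusted p = 0.262) and MDH2 (0.28, adjusted p = 0.268) were then not called. Single libraries also decided these calls: IDH3A was not called without control replicate 1 (adjusted p = 0.0601), control replicate 3 (0.0576), lurbinectedin replicate 1 (0.0538) or lurbinectedin replicate 2 (0.0589), nor MDH2 without lurbinectedin replicate 1 (0.0623). When only the control and lurbinectedin libraries entered the fit, IDH2 (0.28, adjusted p = 1.44e-05) and FH (-0.12, adjusted p = 0.0362) were called too.

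With the combination, 7 of the 9 genes were called in edgeR, 3 higher and 4 lower. The background was 68.4% of all genes tested, 34.1% higher and 34.4% lower. CS, OGDH, SUCLA2 and FH fell and IDH2, IDH3A and DLST rose, while SUCLG1 and MDH2 did not pass the test. The median of the 9 was -0.15, beside 0.04 for all genes. Groups did not overlap for 3 members that were higher (38.7% of all genes tested) and 4 that were lower (38.5%). The IDH2 call was lost without control replicate 1 (adjusted p = 0.122), control replicate 2 (0.102), control replicate 3 (0.0898), combination replicate 1 (0.162) or combination replicate 3 (0.160), and in DESeq2 (adjusted p = 0.0592). When only library size was used, neither IDH2 (0.21, adjusted p = 0.437) nor IDH3A (0.24, adjusted p = 0.0581) was called.

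Teriflunomide alone moved no cycle gene past the threshold. By edgeR, 0 of the 9 were called, beside 6.01% of all genes tested. At an unadjusted p under 0.05 there were 2, CS and MDH2, where 24.8% of all genes passed, and DESeq2 called 1, CS (-0.30, adjusted p = 0.0106). The median log2 fold change of the 9 was -0.08, beside 0.03 for all genes.

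CS gave 341, 333 and 293 CPM in teriflunomide replicates 1 to 3, all under the lowest control library at 386. Its log2 fold change was -0.29 (95% interval -0.48 to -0.10, adjusted p = 0.0637). MDH2 gave 179, 163 and 101 CPM, again all under the lowest control, at 199, with replicate 3 far below the other 2. Its log2 fold change was -0.44 (95% interval -0.79 to -0.09, adjusted p = 0.119). FH, at 178, 160.2 and 155 CPM against a lowest control of 179, was the remaining gene whose groups did not overlap, with a log2 fold change of -0.14 (adjusted p = 0.336). These 3 genes compare with 16.7% of all genes tested whose teriflunomide libraries were all lower; no member had them all higher, beside 20.1% of all genes.

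Teriflunomide replicate 3 set the spread of the other genes. IDH2 gave 157 and 155 CPM in replicates 1 and 2 but 106 in replicate 3, and OGDH 127 and 126 but 96.9. DLST gave 114, 116 and 73.0 CPM, and IDH3A 64.2, 58.9 and 85.1 CPM. For IDH2 and OGDH the first 2 libraries were above the controls and the last was below them, and for DLST the last alone was below them. SUCLG1, at 46.5, 41.6 and 39.8 CPM, and SUCLA2, at 66.1, 63.3 and 73.4 CPM, differed less between libraries. Without replicate 3, IDH2 (0.41, adjusted p = 0.0233) and OGDH (0.34, adjusted p = 0.0437) were called higher, and the value of DLST turned from -0.09 to 0.09. Without replicate 1, MDH2 was called lower (-0.60, adjusted p = 0.0450). In a fit without teriflunomide replicate 3 and combination replicate 2, added after the data were seen, 4 genes were called. CS (-0.23, adjusted p = 0.0216) and MDH2 (-0.23, adjusted p = 0.0417) were lower, and IDH2 (0.41, adjusted p = 0.000209) and OGDH (0.34, adjusted p = 0.00255) higher. That fit called 2757 genes in all, against 1002 with all 12 libraries. The part of the mitochondrial share in these differences was not tested.

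**Figure D3:**
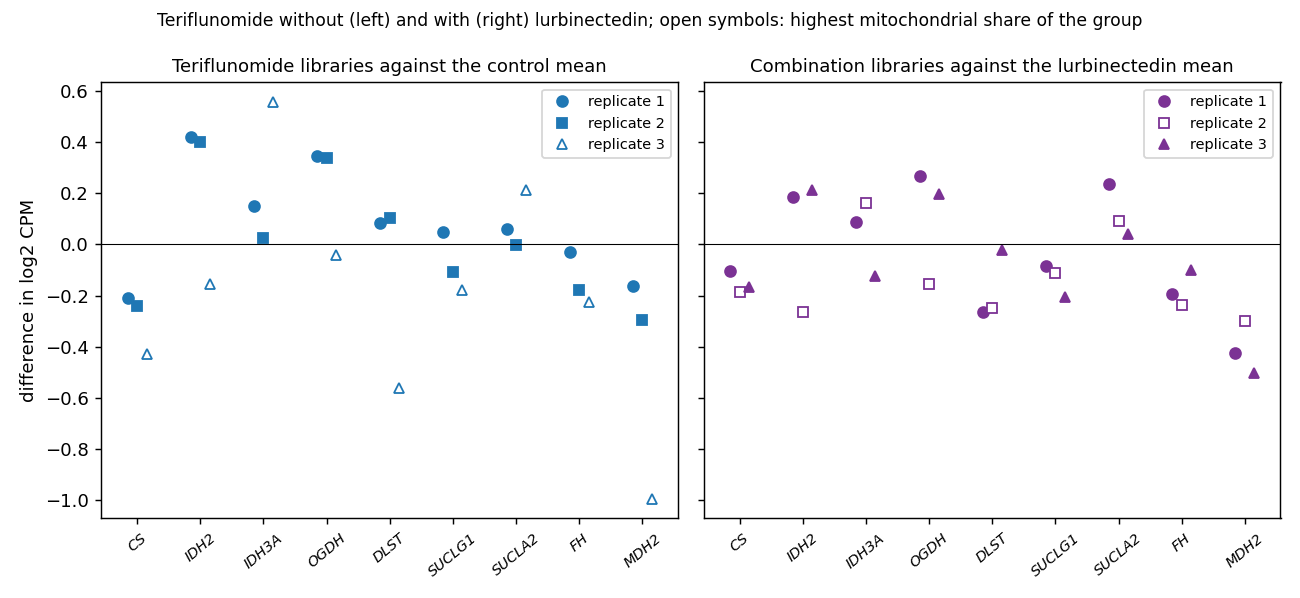
Difference in log2 CPM of each teriflunomide library from the control mean (left) and of each combination library from the lurbinectedin mean (right), for the 9 genes; open symbols mark the library with the highest mitochondrial share of its group. In the left panel the open symbol lies apart for IDH2, IDH3A, OGDH, DLST and MDH2, reaching -0.99 for MDH2, and the mean of DLST, below 0 with it, turns above 0 without it. In the right panel MDH2, CS, FH, SUCLG1 and DLST are below 0 in all 3 libraries, while the mean of IDH3A turns in direction without replicate 2 and that of IDH2 without replicate 3.

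Teriflunomide added to lurbinectedin likewise gave no call: by edgeR 0 of the 9 genes, beside 0% of all genes tested. At an unadjusted p under 0.05 there was 1, MDH2, where 15.6% of all genes passed, and DESeq2 called 0. MDH2 gave 212, 232 and 201 CPM with the combination against 263 to 311 CPM with lurbinectedin alone, and its log2 difference was -0.41 (95% interval -0.76 to -0.06, adjusted p = 0.261). The libraries did not overlap for 4 genes that were lower, CS, SUCLG1, FH and MDH2 (12.6% of all genes), and for SUCLA2, which was higher (11.1%). In the 10-library fit MDH2 (-0.46, adjusted p = 0.000397) was called lower, and IDH2 (0.20, adjusted p = 0.0333) and OGDH (0.23, adjusted p = 0.0330) higher, among 3640 genes. The value of IDH3A, 0.05 with all libraries, was -0.01 there.

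The interaction asks whether the effect of teriflunomide differed with and without lurbinectedin. None of the 9 was called by edgeR (0.258% of all genes tested were), none had an unadjusted p under 0.05 (10.3% of all genes did) and DESeq2 called 0. The interaction values ran from -0.21 for IDH3A to 0.14 for CS, with a smallest adjusted p of 0.756. For MDH2 the value was 0.03, with a 95% interval from -0.46 to 0.52, so differences of that size between the settings were not detectable. Without teriflunomide replicate 3 the MDH2 value was -0.17, and in the 10-library fit it was -0.24 (adjusted p = 0.157). That fit again called none of the 9, with values from -0.24 for MDH2 to 0.12 for SUCLA2, beside 10.9% of all genes tested.

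Lurbinectedin added to teriflunomide changed 4 of the 9 genes, beside 70.9% of all genes tested. OGDH fell by 1.51 and SUCLA2 by 1.12 on the log2 scale, where 35.8% of all genes were called lower. DLST rose by 0.99 and MDH2 by 0.54, where 35.2% were called higher. The MDH2 value rested in part on teriflunomide replicate 3: it was 0.32 without that library (adjusted p = 0.00357) and 0.26 in the 10-library fit (adjusted p = 0.00646). Leaving out teriflunomide replicate 3 raised the count to 7: CS (-0.24, adjusted p = 0.00747), FH (-0.19, adjusted p = 0.0442) and IDH3A (0.32, adjusted p = 0.00520) then passed too. MDH2 was not called when libraries were scaled by size alone (0.41, adjusted p = 0.103).

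Ratios of subunits within a library do not depend on the scaling between libraries. DLST to OGDH, per exon length, was 1.30, 1.28 and 1.15 in the control libraries and 7.54, 6.52 and 6.56 with lurbinectedin. It was 1.03, 1.06 and 0.864 with teriflunomide and 4.74, 6.42 and 5.90 with the combination. The ratio of E2 to E1 RNA thus went from 1.24 ± 0.0795 to 6.87 ± 0.581 with lurbinectedin (SD, n = 3 each; exact two-sided permutation p = 0.1, the smallest that 3 against 3 libraries allow). The teriflunomide and combination groups lay apart from control as well (exact permutation p = 0.1 each), and the combination ratio, 5.69 ± 0.861, lay below that of lurbinectedin in every library (exact permutation p = 0.1).

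For succinate-CoA ligase the ratio of SUCLA2 to SUCLG1 was 0.612, 0.674 and 0.700 in the control libraries and 0.284, 0.300 and 0.317 with lurbinectedin. It was 0.667, 0.713 and 0.866 with teriflunomide, which overlapped control, and 0.375, 0.345 and 0.356 with the combination. The lurbinectedin and combination ratios were each below control and apart from each other (exact two-sided permutation p = 0.1 for each). Between the beta subunits, SUCLA2 to SUCLG2 was 0.337 ± 0.00675 in the control group and 0.288 ± 0.0227 with teriflunomide. It was 2.54 ± 0.455 with lurbinectedin and 3.20 ± 0.918 with the combination (SD, n = 3 each, exact permutation p = 0.1 for each drug group against control). On the annotated exon lengths, the RNA of the GDP-forming subunit was thus the more abundant without lurbinectedin and the less abundant with it. In control that order rests largely on annotated length, 8.879 kb for SUCLA2 and 3.088 kb for SUCLG2. SUCLA2 and SUCLG2 gave 63.4 ± 2.97 and 65.4 ± 3.44 CPM there, and 28.5 ± 0.795 and 3.98 ± 0.627 CPM with lurbinectedin. The 4 ratios gave 16 comparisons between groups, and an exact permutation p of 0.1 became 0.16 after Benjamini-Hochberg adjustment over them, so none passed the threshold.

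**Figure D4:**
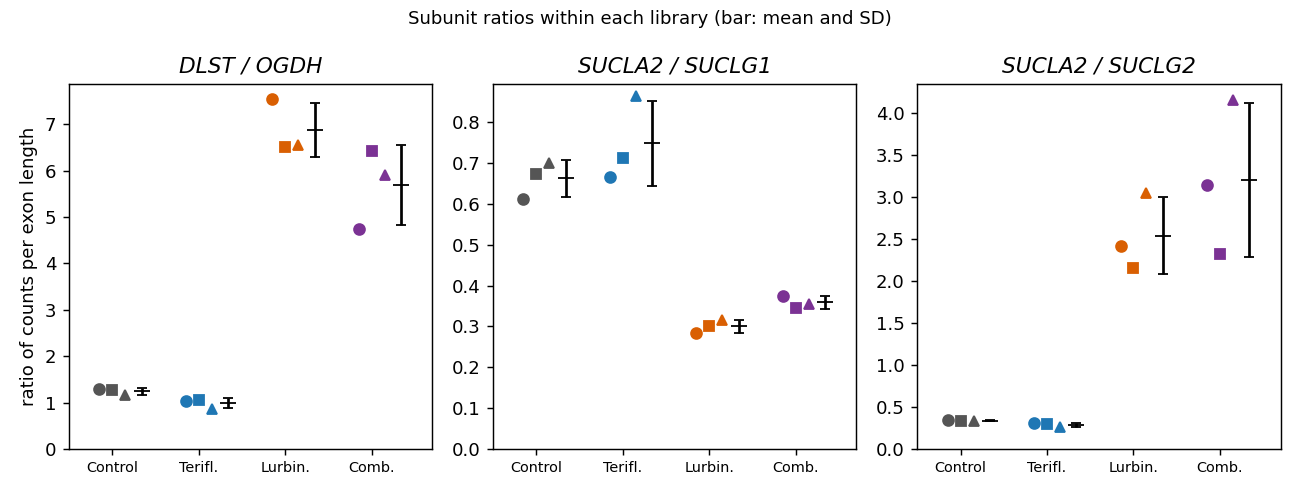
Ratio of counts per exon length between 2 subunits in each library, with group mean and SD, for DLST to OGDH, SUCLA2 to SUCLG1 and SUCLA2 to SUCLG2; axes start at 0. The libraries exposed to lurbinectedin are separate from the others in all 3 panels, high for DLST to OGDH (4.74 to 7.54) and low for SUCLA2 to SUCLG1 (0.284 to 0.375).

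The other 10 subunits of the cycle moved in both directions too. With lurbinectedin 3 rose, 6 fell and 1 did not pass the test, with a median log2 fold change of -0.52. Of all genes tested 71.6% were called, 36% higher and 35.7% lower, and their median was 0.05. SUCLG2, the GDP-forming beta subunit, gave 62.1, 69.0 and 65.2 CPM in the control libraries and 4.22, 4.46 and 3.27 with lurbinectedin, and fell by 4.04 on the log2 scale (SE 0.204, adjusted p = 8.91e-10). No library with lurbinectedin came near a control value. DLD, the E3 subunit of the oxoglutarate and pyruvate dehydrogenase complexes, fell by 0.53. OGDHL, an OGDH-like E1 subunit measured at only 3.27 ± 0.165 CPM in control, fell by 0.52 (adjusted p = 0.0442). The other subunits of the NAD-dependent isocitrate dehydrogenase rose with IDH3A: IDH3B by 0.74, from 68.2 ± 0.958 to 114 ± 11.8 CPM, and IDH3G by 0.65, from 32.2 ± 0.753 to 50.6 ± 4.87 CPM (SD, n = 3 each).

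Succinate dehydrogenase, which links the cycle to the respiratory chain, was divided. SDHA, its flavoprotein, gave 15.5, 15.5 and 17.0 CPM in control and 42.8, 39.7 and 41.1 with lurbinectedin, and rose by 1.36 (SE 0.123, adjusted p = 2.41e-07). SDHB, its iron-sulfur subunit, fell by 0.55 and SDHC, a membrane anchor, by 1.07, while SDHD, the other anchor, had a value of -0.28 (adjusted p = 0.115). With the combination 3 of the 10 rose and 6 fell: SDHD fell by 0.40 (adjusted p = 0.0305) and OGDHL, at -0.36, did not pass the test (adjusted p = 0.146). Their median was -0.42, beside 0.04 for all genes, of which 34.1% were called higher and 34.4% lower. By edgeR, teriflunomide alone gave no call among these 10 against control, and none was called between the combination and lurbinectedin. All 3 genes of the NAD-dependent isocitrate dehydrogenase were thus called higher with lurbinectedin, while the oxoglutarate, succinyl-CoA and succinate enzymes each had subunits that moved apart.

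Further lists held the genes that feed the cycle, its cytosolic counterparts, its carriers and its assembly factors. With lurbinectedin 7 of their 43 tested genes were called higher and 19 lower, 60.5% in all, a share below the 71.6% of all genes tested, of which 36% were higher and 35.7% lower. Of 12 tested genes of pyruvate entry 2 rose and 5 fell. PDK1 and PDK3, kinases that inhibit pyruvate dehydrogenase, fell by 1.84 and 1.43, and PDP1, a phosphatase that reactivates it, rose by 1.11. Of 8 tested genes of anaplerosis and glutamine entry 1 rose and 6 fell: PC, which makes oxaloacetate from pyruvate, fell by 2.91, ME2, the mitochondrial malic enzyme, by 1.08 and ALDH18A1, which makes a proline precursor from glutamate, by 0.62. Of 6 cytosolic counterparts 4 fell and none rose, and the malic enzyme ME1 fell by 4.65, IDH1 by 1.62 and ACO1, the cytosolic aconitase, by 1.18.

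Of 7 carriers 1 rose and 2 fell, and of all genes tested 36% were called higher and 35.7% lower. The aspartate-glutamate carriers SLC25A13 and SLC25A12 fell by 3.88 and 2.25. SLC1A5, a glutamine transporter and the only listed gene outside the SLC25 family, rose by 1.25, so no SLC25 carrier was called higher. Of 10 assembly factors and modifiers 3 rose and 2 fell: SDHAF3 and SIRT5, a desuccinylase, fell by 1.79 and 0.75, and SDHAF1 rose by 1.03. SDHAF1 and SDHAF3 are assembly factors of succinate dehydrogenase. The median log2 fold change was -0.19 for pyruvate entry, -0.42 for anaplerosis and glutamine entry, -0.83 for the cytosolic counterparts, 0.06 for the carriers and 0.11 for the assembly list, beside 0.05 for all genes tested.

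With teriflunomide alone 2 of the 43 genes of these lists were called, 4.65% beside 6.01% of all genes tested. Both were higher: MPC2, a subunit of the mitochondrial pyruvate carrier (0.48, adjusted p = 0.0156), and LIPT2, which transfers octanoate in lipoate synthesis (0.47, adjusted p = 0.0437). SLC1A5 gave -0.87 (adjusted p = 0.0631), ALDH18A1 -0.35 (adjusted p = 0.0652) and ACLY, which splits citrate in the cytosol, -0.21 (adjusted p = 0.360). These values moved without teriflunomide replicate 3: SLC1A5 was then called lower at -0.53 (adjusted p = 0.00168), ALDH18A1 gave -0.24 (adjusted p = 0.0586) and ACLY -0.04 (adjusted p = 0.840). All 7 carriers had a value below 0, with a median of -0.45, and none passed the test. Without that library 6 of the 7 had a value below 0, with a median of -0.16, and SLC1A5 was the only gene of the carrier list called. ME2 (-0.29, adjusted p = 0.0434) and PDK1 (-0.47, adjusted p = 0.0171) were then also called lower and PDP1 (0.41, adjusted p = 0.0498) higher, where 9.11% of all genes were called.

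The genes differ in genomic span, and OGDH and SUCLA2, the members that fell most with lurbinectedin, are the longest, at 102 and 292 kb in the deposited coordinates. OGDH is in the longest of 5 equal bins of span, whose median log2 fold change was -1.86, and fell by less than that median. The place of SUCLA2 depends on the annotation: on the deposited span it is in the same bin and fell by less than its median, while on its RefSeq span of 58.6 kb it is in the next shorter bin, whose median was -0.36, and fell by more. CS, IDH2, DLST, FH and MDH2 lie in the middle bin, from 16.3 to 35.9 kb, on either annotation. The median of that bin was 0.28; DLST, MDH2 and IDH2 were above it and CS and FH below it. IDH3A and SUCLG1 lie in the fourth bin on the deposited spans, above its median of -0.36, but their RefSeq spans of 22.6 and 35.8 kb belong in the middle bin, where IDH3A, at 0.37, is above the median and SUCLG1, at -0.01, below it. SUCLG2, at 294 kb, fell by more than the median of the longest bin, and SDHA, at 38.8 kb, rose where its bin's median was below 0. Across the 9 members Spearman's rho between deposited span and log2 fold change was -0.67, beside -0.57 across 16651 nuclear genes. With RefSeq spans the rho of the 9 was -0.82, and no value for all genes was computed on those spans. These values are a description over genes that share the same libraries. The bins and their medians come from deposited spans, also where a RefSeq span is placed in them.

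**Figure D5:**
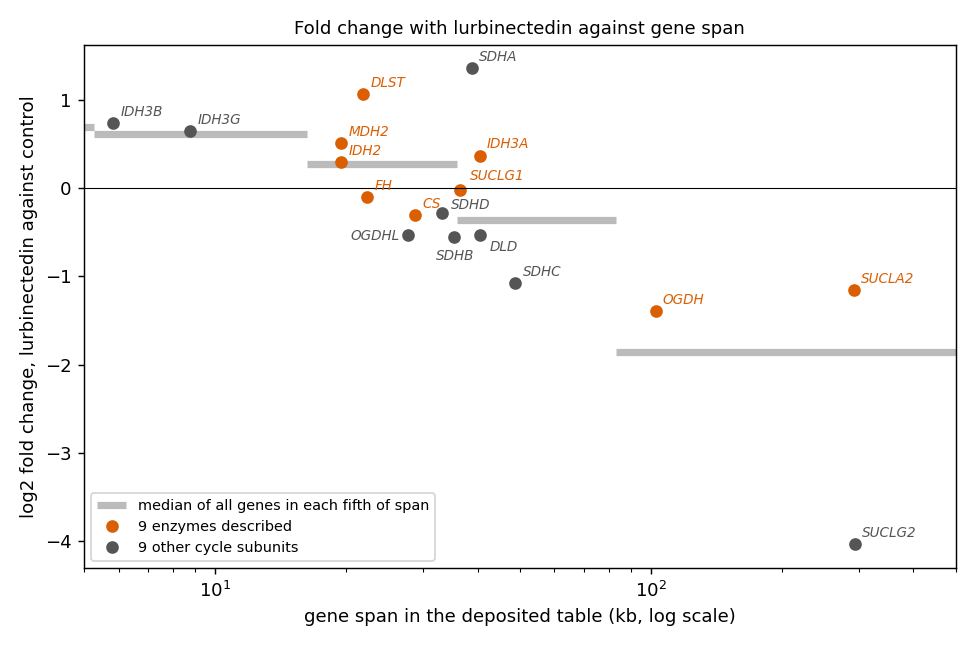
Log2 fold change with lurbinectedin against deposited gene span (log scale) for the 9 genes described (orange) and 9 other cycle subunits (grey); grey bars give the median of all genes in each of 5 equal bins of span. OGDH and SUCLA2 sit above the bar of the longest bin, at -1.86, and SUCLG2 below it, though on its RefSeq span SUCLA2 would sit below the bar of the next shorter bin, while DLST, at 1.07, and SDHA, at 1.36, sit above the bars at their spans. SUCLG1, drawn at -0.01, turned to 0.03 with a filter at 1 CPM.

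For each member the gene with the most similar log2 CPM over the 12 libraries was found by Pearson correlation, as a description, since the libraries fall into those with and without lurbinectedin. For OGDH it was SH3PXD2B (0.997), for SUCLA2 NEK1 (0.998) and for DLST HPS1 (0.998). Such matches were common: 2354, 2921 and 1458 genes had a correlation over 0.95 with these members. MDH2 was followed most closely by SRM, spermidine synthase (0.994), which gave 126, 127 and 132 CPM in control, 103, 90.4 and 54.0 with teriflunomide and 236, 187 and 208 with lurbinectedin. Both genes shared the low value in teriflunomide replicate 3. For CS it was YARS1, the cytosolic tyrosyl-tRNA synthetase (0.977), and for IDH3A the zinc finger gene RBAK (0.981). The closest were weaker for IDH2 (SEMA4F, 0.936), FH (RPN1, 0.938) and SUCLG1 (DAD1, 0.860), and no gene reached 0.95 with these 3.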

How the data were processed

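RNA of 12 libraries was sequenced after preparation with the KAPA mRNA HyperPrep kit, per the labels. The values are raw counts per gene as the authors deposited them. The submitters' processing notes name fastp 0.23.2, STAR 2.7.9, featureCounts of Subread and the build hg38; strand and multi-mapping settings are not given in the sources used here. Symbols matched 60507 of 60649 identifiers, and all 37318 identifiers shared with GENCODE 29 had its coordinates.

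Counts were tested with edgeR 4.0.16 in R 4.3.3: filterByExpr (16683 genes), TMM, and a robust quasi-likelihood model with 1 mean per group over all 12 libraries, for 6 contrasts, with Benjamini-Hochberg adjustment over all genes and calls at an adjusted p under 0.05. The biological coefficient of variation was 14.5%. The procedure was tested on simulated data. Alternatives were other scalings, filters, thresholds, the fitted samples, DESeq2 1.42.0, a replicate term and leaving out libraries. A 10-library fit was added after the data were seen.

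The members and gene lists were chosen with earlier results of these data known. Named genes are the 9 members, the 10 other cycle subunits, and from each further list at most 3 with the smallest adjusted p with lurbinectedin and 1 with teriflunomide; overlapping and nearest-pattern genes are also named. Single values of some genes that meet this rule are not reported here. Standard errors come from the quasi-likelihood F statistic. Per-length levels divide CPM by annotated exon length. Ratios were compared by exact two-sided permutation tests. Promoter sequences come from RefSeq.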

Additional observations from a re-analysis of the deposited data

How the results depend on the processing

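Of 107 recomputed counts of called members, 97 stayed within 1.5 times the value reported. Of 675 recomputed fold changes of single members, 624 kept their direction and side of the threshold. Of the others, 20 gained a call, 20 lost a call and 11 changed sign. All 9 recomputed levels moved from the values reported. With teriflunomide the count of 0 became 1 without an expression filter, 1 in DESeq2 and 4 in the 10-library fit. With lurbinectedin the 6 became 3 in the TREAT test against a 1.5-fold change, and with the combination the 7 became 3 in that test and 4 at an adjusted p under 0.01. For the combination against lurbinectedin the 0 became 3 in the 10-library fit. Leaving out each library in turn gave 0 to 2 called members with teriflunomide, 4 to 6 with lurbinectedin and 6 to 7 with both drugs, and 4 to 7 for the combination against teriflunomide; it gave 0 for the combination against lurbinectedin and the interaction; where this left 2 libraries in a group, the model pooled the spread over groups. The sign changed for MDH2 with the combination (-0.073, library size only), for SUCLG1 with lurbinectedin (0.031 with a filter at 1 CPM; -0.087 to 0.017 as libraries were left out, above 0 without control replicate 1 or 2 or lurbinectedin replicate 3) and for DLST with teriflunomide (0.093 in the 10-library fit; -0.20 to 0.092 as libraries were left out, above 0 without teriflunomide replicate 3). Between the combination and teriflunomide IDH2 ran from -0.060 (without teriflunomide replicate 3) to 0.25. Between the combination and lurbinectedin IDH3A was -0.011 in the 10-library fit and ran from -0.011 (without combination replicate 2) to 0.13, and IDH2 from -0.023 (without combination replicate 3) to 0.20. The cause of these changes was not tested.

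No pairing of libraries by replicate number was seen. Over 18 pairs with the same number, the correlation of deviations from the group means ran from -0.40 to 0.14, and 1 was over 0.1. With 3 libraries per group, and 2 libraries that stood apart from their groups, this check cannot exclude a pairing. With a replicate block the counts were 0 with teriflunomide, 6 with lurbinectedin and 6 with both drugs, since IDH2 had an adjusted p of 0.0733 (log2 fold change 0.36), 4 for the combination against teriflunomide, and 0 for the other comparisons.

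Messenger RNA levels do not give enzyme amount or flux, all values are relative to the other genes of a library, and 3 libraries per group from 1 line, with doses and times not given, limit every comparison.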

Other observations

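The summed level of the 9 genes was 1268 ± 15.7 CPM in the control group, 1171 ± 132 with teriflunomide, 1331 ± 53.5 with lurbinectedin and 1194 ± 32.6 in the combination group (SD, n = 3 each). Teriflunomide replicate 3 gave 1022 CPM, the lowest of all libraries, and replicates 1 and 2 gave 1273 and 1218.

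Over the 12 libraries, OGDH and SUCLA2 varied together (Pearson's r of log2 CPM 0.97), as did CS and FH (0.88) and DLST and MDH2 (0.84), while DLST varied against OGDH (-0.90) and SUCLA2 (-0.97). These values describe 12 libraries that share a division by lurbinectedin, so they are not independent of the fold changes above.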
